A study of Mus musculus with 18 samples.

Results

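The sperm tail is built around a core of microtubules that carries outer dense fibers, and over most of the tail's length the fibers are wrapped in a fibrous sheath. Both structures are assembled from proteins that round and elongating spermatids make late in spermatogenesis, after meiosis is complete. The fibrous sheath also serves as a scaffold that holds protein kinase A and glycolytic enzymes along the tail, and the outer dense fibers give the tail its stiffness. Here the RNA levels of 10 genes of these structures are described in cultured mouse testes, out of 22657 genes in the table. The 10 were picked by name for their known place in the tail, although earlier results of these data were known. Each was found through its NCBI gene number. Akap3, Akap4, Fscb, Cabyr, Ropn1 and Spa17 stand for the fibrous sheath. Odf1, Odf2, Odf4 and Oaz3 stand for the outer dense fibers and the attachment of the tail.

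RNA-seq was carried out on testes of ICR mice cultured for 48 h in DMEM/F12 medium with serum, in 6 groups of 3 samples. A0, A10 and A50 were testes of mice without busulfan, cultured with alginate oligosaccharides (AOS, short sugar chains made from the alginate of brown algae) at 0, 10 or 50 μg/mL. For B0, BA10 and BA50 the mice had been injected with busulfan at 40 μg per g body weight at 3 weeks of age, the testes were collected 2 weeks later, and AOS was added at the same 3 concentrations. Busulfan alkylates DNA and is toxic to germ cells that divide. The mice without busulfan were of the same age at collection. The study's methods give 6 testes per treatment in repeated cultures, without tying a repeat to a replicate number. The p-values of the fit below therefore measure the spread between the samples within groups, estimated together over all 6 groups of 3 samples.

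Levels are given as FPKM, a read count scaled to gene length and to the reads of the sample, so that levels of different genes can be compared. Values of a sample summed to 463970 to 511274 FPKM, and 14291 to 15040 genes per sample reached 1 FPKM. The read number of each sample is unknown. The spermatid marker Prm1 averaged 851 to 2092 FPKM and the Sertoli cell marker Clu 1756 to 3329 FPKM over the groups, while the summed epididymis markers did not pass 4.18 FPKM in any sample. Sample A10 replicate 3 stood apart: its mean correlation with the other samples of its group was 0.935, the lowest of the 18, and its summed Sertoli cell markers were 940 FPKM against 2171 FPKM or more elsewhere. Summed fat cell markers were 194 to 795 FPKM in B0 against 42.2 to 137 FPKM in the other groups, and summed simple epithelium markers were 79.4 to 203 FPKM in B0 against 17.0 to 46.6 FPKM.

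The promoters of Akap3, Akap4 and Fscb are shown because these genes share sequence there. Across the 18 samples the pairs of these 3 had r of 0.948 to 0.959. Moving together was not particular to them: pairs of members ran from 0.281 to 0.993 (Odf1 and Oaz3). Ropn1, whose promoter lacks the motif named below, followed Akap3 at 0.955. A part of the shared sequence in this was not tested. RefSeq (GRCm38.p6) gave a promoter for 7 of the 10 genes. The 250 bases before the transcription start were searched on both strands for TGATGTCA, a relative of the cAMP response element that factors of the CREM family bind in spermatids, and capitals mark it in the last 100 bases before the start. The motif was chosen after the sequences had been looked at. The stretch of Akap3 lies at chr6:126852998-126853097 on the plus strand, that of Akap4 at chrX:7067415-7067514 on the plus strand and that of Fscb at chr12:64474899-64474998 on the minus strand, each just before the first exon of the RefSeq transcript.
Akap3: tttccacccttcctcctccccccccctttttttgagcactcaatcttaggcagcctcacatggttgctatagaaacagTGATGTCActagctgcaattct
Akap4: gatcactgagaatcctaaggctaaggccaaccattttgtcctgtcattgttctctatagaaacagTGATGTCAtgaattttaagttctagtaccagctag
Fscb: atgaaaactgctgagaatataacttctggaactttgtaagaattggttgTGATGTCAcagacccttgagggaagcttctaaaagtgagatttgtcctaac
The motif started 22 bases before the start in Akap3, 35 bases in Akap4 and 51 bases in Fscb. It was found in 3 of the 7 members with a promoter and in 3.41% of all 27025 genes with one. Akap3 and Akap4, genes on different chromosomes, shared the run ctatagaaacagtgatgtca of 20 bases that ends in the motif, and no other gene in the promoter table held this run. The full cAMP response element TGACGTCA was in none of the 7 and in 1.77% of genes, and its shortened form TGACG, which overlaps it, was in Odf2 alone and in 19.8% of genes. These are matches of letters, and no binding was measured.

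All 10 genes were well expressed and passed the filter on low values (at least 1 FPKM in 3 samples), as did 15790 genes in all. By median over the 18 samples the order was Odf2 (511 FPKM), Spa17 (400 FPKM), Oaz3 (370 FPKM), Odf1 (240 FPKM), Akap4 (148 FPKM), Cabyr (100.5 FPKM), Akap3 (82.8 FPKM), Ropn1 (65.1 FPKM), Odf4 (59.2 FPKM) and Fscb (27.5 FPKM). The ranges of neighbours in this order overlapped, with a span of 240 to 779 FPKM for Spa17 beside 239 to 925 FPKM for Oaz3. Odf2 was above 99.4% of the genes tested and Fscb above 77.6%. Odf2, the scaffold of the outer dense fibers, also has centrosomal forms in other cells, and RefSeq lists 13 of its protein-coding transcripts, which the gene-level value does not separate.

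The first question was whether busulfan, given while the first waves of spermatogenesis were under way, lowered these genes. In B0 against A0 it did not do so to a degree the test could show: log2 changes ran from -0.38 (Odf4) to 0.20 (Cabyr), with a median of -0.0028 against -0.04 for all genes, and the 95% confidence interval of each of the 10 lay inside a change of 2-fold either way. None of the 10 was called in B0 against A0, where 2.54% of genes were called at an adjusted p of at most 0.001 and a log2 change of at least 1 (limma on log2(FPKM + 1), Benjamini-Hochberg adjusted). The members' adjusted p ran from 0.39 to 0.98, and none was at an unadjusted p under 0.05, where 5.57% of genes were higher and 19.3% lower. No member had all B0 samples below all A0 samples, which 22.7% of genes had. In these bulk samples fewer cells of a type and less RNA per cell cannot be told apart. FPKM is also relative to all reads of a sample, and the makeup of the samples differed. Summed spermatocyte markers averaged 369 FPKM in A0 and 47.1 FPKM in B0, and summed fat cell markers 72.45 and 419 FPKM. Amounts per testis were not measured, and the part of this shift in the members' levels was not tested.

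Genes of meiosis were called lower in the same samples. Of 7 spermatocyte markers, 5 were called lower in B0 than in A0, as were 393 of the 15790 genes tested, and the median log2 change of the list was -3.15. Sycp3, a protein of the meiotic chromosome axis, was at 109 to 137 FPKM in the samples without busulfan and at 8.25 to 14.8 FPKM in those with it. Set against Akap4 in the same sample, Sycp3 stood at 0.647 to 1.37 times the Akap4 level without busulfan and at 0.0441 to 0.0992 times with it. This pair was chosen after the values were seen and is a description. The 8 spermatid markers, like the 10 tail genes, had no called member in this comparison, and their median log2 change was -0.04. The differences between these lists and the tail genes were not tested.

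**Figure D1:**
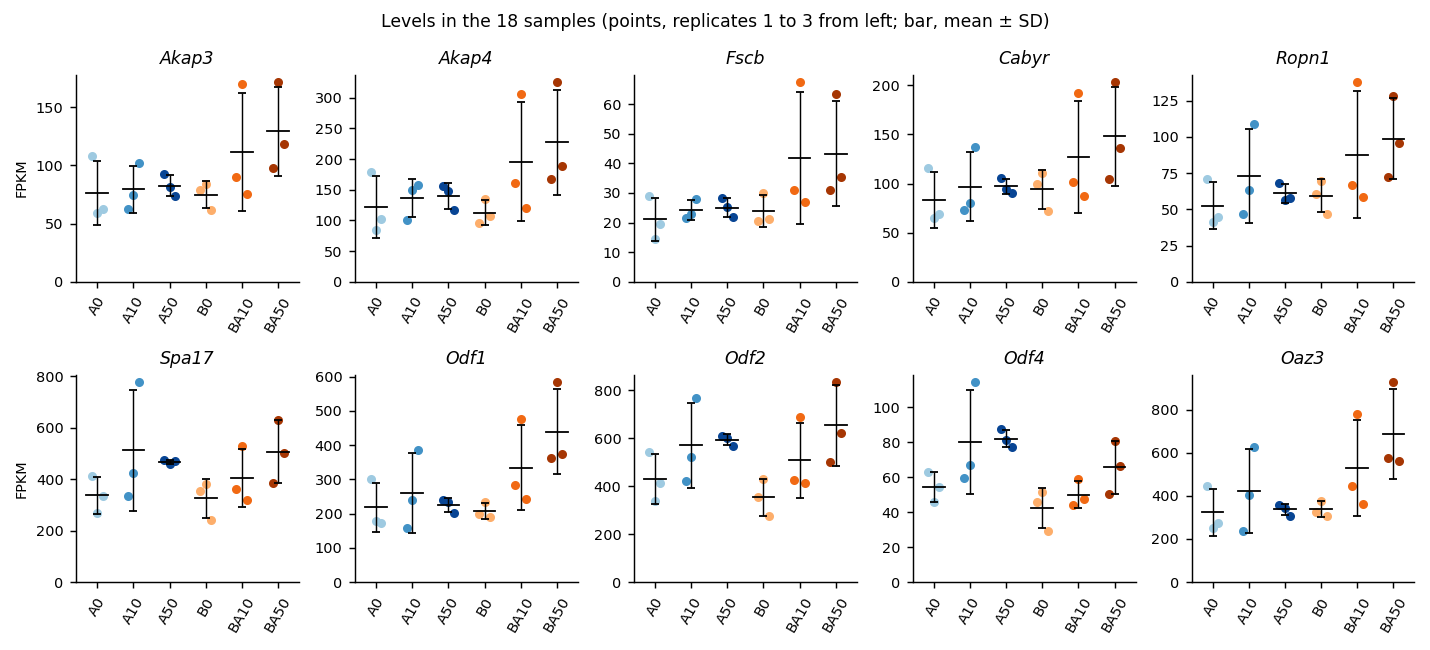
FPKM of the 10 genes (panels; y axes from 0) in the 6 groups, with a point for each sample and bars for the mean ± SD of 3 samples. A0 and B0 overlap for every gene, and BA10 replicate 2 and BA50 replicate 2 lie above the rest of the busulfan samples, except that BA50 replicate 3 is above BA10 replicate 2 for Odf4.

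Akap4, the main scaffold of the fibrous sheath, binds protein kinase A and is encoded on the X chromosome. It was at 179, 84.7 and 102 FPKM in A0, at 100, 150 and 158 FPKM in A10 and at 157, 147 and 117 FPKM in A50. With busulfan it was at 95.9, 135 and 107 FPKM in B0, at 162, 306 and 121 FPKM in BA10 and at 168, 325 and 188 FPKM in BA50. The BA50 samples all lay above the B0 samples, and A0 and B0 overlapped. Akap3, a related anchoring protein of the sheath, ranged from 59.0 FPKM in A0 replicate 2 to 172 FPKM in BA50 replicate 2. The ratio of Akap4 to Akap3 was 1.44 to 2.02 without busulfan and 1.22 to 1.89 with it, so the pair kept nearly the same proportion.

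Fscb, a sheath protein that binds CABYR, was the gene with the widest range, 4.62-fold from lowest to highest. Its samples were at 28.9, 14.6 and 19.6 FPKM in A0, at 21.6, 22.8 and 28.0 FPKM in A10 and at 28.2, 25.1 and 21.7 FPKM in A50. They were at 20.4, 30.0 and 21.1 FPKM in B0, at 30.9, 67.3 and 27.1 FPKM in BA10 and at 30.9, 63.5 and 35.4 FPKM in BA50. The sample numbered 2 was the highest in each of the 3 busulfan groups. Cabyr, a calcium-binding sheath protein, ranged from 64.9 to 204 FPKM. Ropn1 and Spa17 carry a domain like that of the regulatory subunit of protein kinase A through which they dock on anchoring proteins, and they ranged from 41.4 to 138 FPKM and from 240 to 779 FPKM.

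Odf1, a protein of the small heat shock family that is needed for a firm join between head and tail, was at 302, 179 and 173 FPKM in A0, at 157, 240 and 387 FPKM in A10 and at 239, 234 and 201 FPKM in A50. It was at 199.97, 235 and 190 FPKM in B0, at 285, 477 and 241 FPKM in BA10 and at 362, 584 and 374 FPKM in BA50. The lowest BA50 sample was above every B0 and A50 sample. Oaz3, an antizyme of the testis that restrains polyamine synthesis and whose loss detaches sperm heads, had a pattern very close to that of Odf1 (r = 0.993 over 18 samples).

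Odf4, an outer dense fiber protein of the testis, had the lowest busulfan change of the 10. It was at 63.2, 46.1 and 54.7 FPKM in A0, at 59.5, 67.1 and 114 FPKM in A10 and at 87.4, 81.7 and 77.6 FPKM in A50. It was at 45.9, 51.8 and 29.5 FPKM in B0, at 44.0, 58.8 and 47.4 FPKM in BA10 and at 50.4, 80.8 and 66.3 FPKM in BA50. Between groups of equal AOS concentration, all BA10 samples were below all A10 samples, narrowly, at 58.8 against 59.5 FPKM. B0 and A0 overlapped, as did BA50 and A50.

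Over the 3 concentrations, with 9 busulfan samples against 9 without, the changes went in both directions. Log2 changes were 0.52 for Fscb (95% confidence interval 0.12 to 0.93), 0.48 for Oaz3, 0.43 for Odf1 and 0.34 to 0.37 for Cabyr, Ropn1, Akap3 and Akap4. They were -0.09 for Spa17, -0.11 for Odf2 and -0.45 for Odf4 (95% confidence interval -0.75 to -0.14). None was called, against 3.61% of all genes. At an unadjusted p under 0.05, Fscb, Oaz3 and Odf1 were higher (3 of 10, against 19.4% of genes) and Odf4 was lower (1 of 10, against 28% of genes). At an adjusted p under 0.05 with no limit on size, Fscb (limma adjusted p = 0.042) and Odf4 (limma adjusted p = 0.023) passed, 2 of 10 where 38.1% of all genes passed. Two-sided exact permutation tests over the 8000 arrangements within concentrations gave p = 0.014 for Fscb and 0.0035 for Odf4. With single samples left out, the number passing the adjusted limit was 4 without A0 replicate 1 or A10 replicate 3, 3 without BA10 replicate 3, 2 without replicate 1 of B0, BA10 or BA50 or without BA50 replicate 3, and 1 without any of the other 11.

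Odf4 and Fscb therefore stood at opposite ends, and their ratio is given as a description, chosen after their values were seen. Odf4 was at 2.18 to 4.09 times Fscb (median 3.11) in the 9 samples without busulfan and at 0.874 to 2.26 times (median 1.63) in the 9 with it. A0 replicate 1 (2.18) and B0 replicate 1 (2.26) were the only samples that crossed. The ratio of Odf2 to Odf1 was 1.80 to 2.81 without busulfan and 1.38 to 1.83 with it, so it also touched at the edge.

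**Figure D2:**
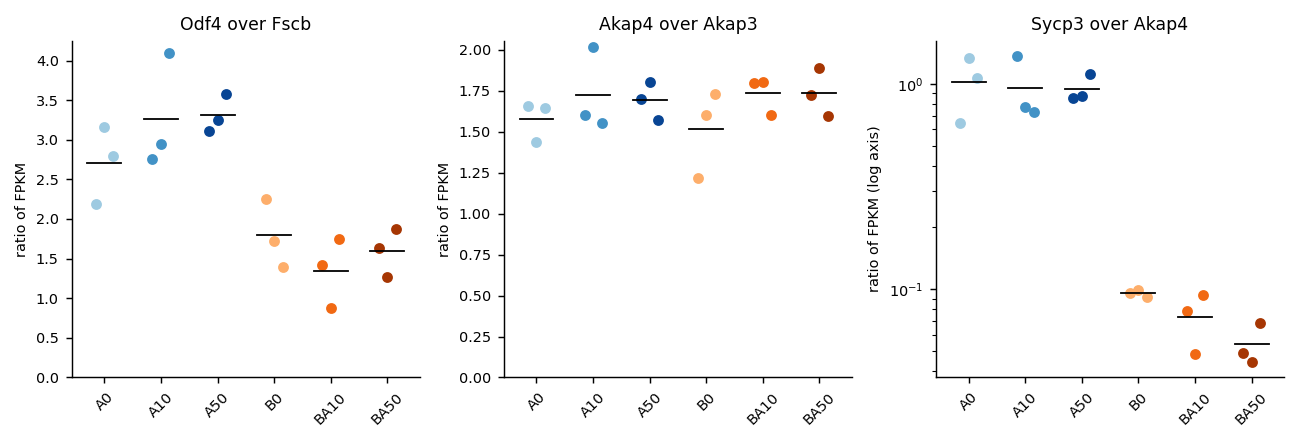
Ratio of FPKM within each sample (y axes; log axis for Sycp3 over Akap4) for 3 gene pairs in the 6 groups, with a point for each sample and a line at the mean of 3. Odf4 over Fscb has a median of 3.11 without and 1.63 with busulfan, Akap4 over Akap3 stays between 1.22 and 2.02, and Sycp3 over Akap4 is below 0.1 in every busulfan sample.

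The same comparison was made within each AOS concentration. In BA10 against A10 the changes ran from -0.62 (Odf4) to 0.66 (Fscb), and none of the 10 was called against 3.01% of genes. Odf4 was the 1 member lower at an unadjusted p under 0.05 (20.7% of genes) and the 1 member with all busulfan samples lower (20.2% of genes). In BA50 against A50 they ran from -0.34 (Odf4) to 0.99 (Oaz3), and none was called against 3.39% of genes. Odf1, Fscb and Oaz3 were higher at an unadjusted p under 0.05 (3 of 10, against 10.6% of genes). These 3 became 0 without BA50 replicate 2 and 6 without BA50 replicate 1, and with only the 2 groups in the fit they were 6, with 2 at an adjusted p under 0.05. In the fit of all groups 6 of the 10 (Odf1, Akap3, Akap4, Fscb, Ropn1 and Oaz3) had all BA50 samples above all A50 samples, against 16% of genes, with limma adjusted p from 0.053 to 0.22 for these 6. Whether the busulfan change differed with AOS is the same question as whether the AOS change differed with busulfan, and it was tested once, at each concentration.

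The second question was whether AOS in the medium changed these genes. In testes of busulfan-treated mice, BA50 against B0 gave log2 changes of 0.62 (Cabyr) to 1.05 (Odf1) with a median of 0.77, against -0.04 for all genes. The changes were 0.99 for Oaz3, 0.96 for Akap4, 0.87 for Odf2, 0.78 for Fscb, 0.75 for Akap3, 0.71 for Ropn1, 0.64 for Spa17 and 0.63 for Odf4. None of the 10 was called, as 0% of all genes were, and the limma adjusted p ran from 0.11 to 0.26. At an unadjusted p under 0.05, 8 of the 10 were higher, against 12.7% of all genes. All BA50 samples were above all B0 samples for 8 of the 10 (all but Odf4 and Cabyr), against 11.2% of genes, which is the most that 3 against 3 samples can show, with an exact permutation p of 0.1. This count leaned on single samples: 2 of the 10 were at an unadjusted p under 0.05 without BA50 replicate 2, 4 without B0 replicate 3 and 5 without B0 replicate 1, while without BA50 replicate 1 all 10 were, with 1 at an adjusted p under 0.05, and the median log2 change was 0.51 to 0.96 over the 6 samples left out in turn.

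Other lists moved between the same groups. In BA50 against B0 the 8 spermatid markers had a median log2 change of 0.95 and the 7 spermatocyte markers one of 0.50, with none called. Of 5 fat cell markers 3 and of 5 simple epithelium markers 3 were lower in BA50 at an adjusted p under 0.05, with median log2 changes of -2.57 and -2.84. In this comparison 15 of the 15790 genes tested, or 0.095%, passed that limit. Cfd, which marks fat cells, averaged 58.1 FPKM in B0 and 0.957 FPKM in BA50, and Krt18 averaged 41.4 and 3.67 FPKM. The part of this in the tail genes' differences was not tested.

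**Figure D3:**
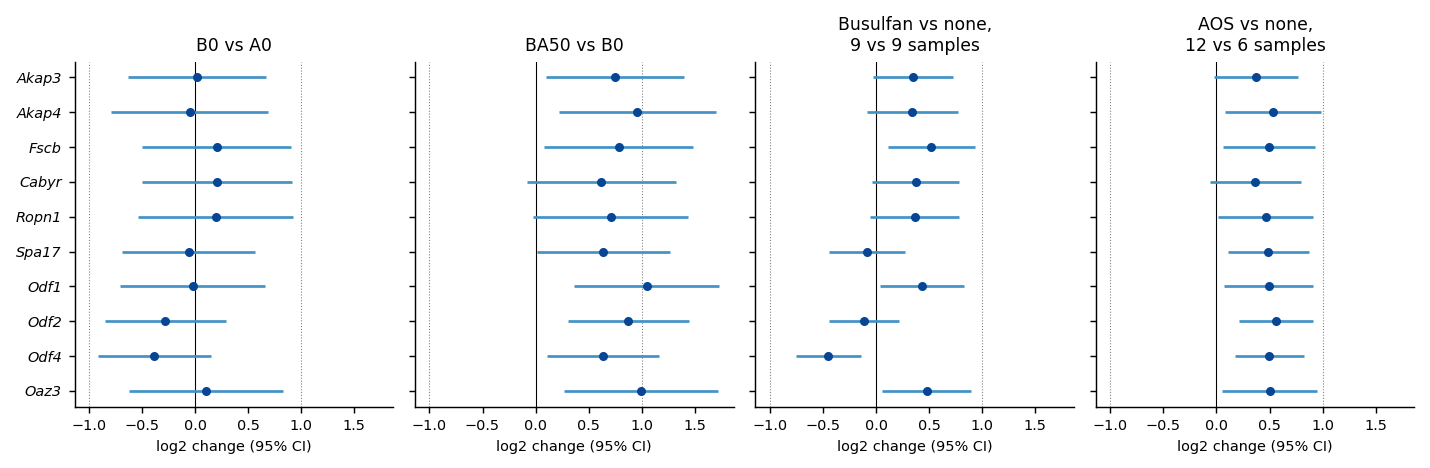
Log2 change on the log2(FPKM + 1) scale (x axis) of the 10 genes with 95% confidence intervals from limma, in 4 comparisons; dotted lines mark a 2-fold change. The 10 intervals of B0 against A0 include 0 and lie within the dotted lines, and the 10 values of BA50 against B0 lie at 0.62 to 1.05.

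At the lower concentration, BA10 against B0 gave log2 changes of 0.26 (Odf4) to 0.70 (Akap4), with none called against 0% of genes and adjusted p of 0.75 to 0.76. No member was at an unadjusted p under 0.05 (1.89% of genes higher), and Odf1 was the 1 member with all samples higher (3.64% of genes). Without BA10 replicate 3 the number at an unadjusted p under 0.05 was 5, without B0 replicate 2 it was 2, without BA10 replicate 1 it was 1 and under quantile normalization it was 2, while the median log2 change was 0.20 without BA10 replicate 2 and 0.72 without BA10 replicate 3. Without busulfan, A10 against A0 gave 0.08 (Akap3) to 0.53 (Spa17), with none called against 0% of genes, none at an unadjusted p under 0.05 (4.51% of genes higher) and no member with all samples higher (7.81% of genes). The number at an unadjusted p under 0.05 was 1 without A0 replicate 1 and 2 without A10 replicate 1. The median log2 change was 0.28 with all samples and 0.56 without A10 replicate 1. It was 0.088, with 6 of the 10 above 0, without A10 replicate 3, the sample that stood apart. A50 against A0 gave 0.09 (Odf1) to 0.59 (Odf4), with none called against 0% of genes and Odf4 the 1 member higher at an unadjusted p under 0.05 (9.85% of genes). Odf2, Odf4 and Spa17 had all A50 samples above all A0 samples, 3 of 10 against 17.6% of genes. With single samples left out, 0 to 2 members of A50 against A0 were at an unadjusted p under 0.05, with 2 without A0 replicate 1, and with only these groups in the fit there were 3. These 4 comparisons share the A0 or the B0 samples, so they do not bear on each other independently.

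Taking all 12 samples with AOS against the 6 without, at equal weight for busulfan and no busulfan, the 10 log2 changes lay close together, from 0.37 (Cabyr) to 0.56 (Odf2), with a median of 0.49 against -0.06 for all genes. The rise was not particular to these 10. The spermatid markers had a median of 0.50, the spermatocyte markers 0.32, and the 3 further lists of tail genes described below 0.41 to 0.47. The Sertoli cell markers had a median of -0.17, which differed between the arms. Without busulfan it was -0.70 in A10, which includes the sample that stood apart, and -0.26 in A50, each against A0. With busulfan it was 0.046 in BA10 and 0.13 in BA50, each against B0. None of the 10 was called against 0% of genes, and the limma adjusted p ran from 0.065 to 0.20. At an unadjusted p under 0.05, 8 of the 10 were higher, against 15.3% of genes. Exact two-sided permutation tests within busulfan strata gave p of 0.0047 for Odf2, 0.0072 for Odf4 and 0.092 for Cabyr, the lowest 2 and the highest of the 10. The 8 became 2 without A0 replicate 2, 3 without A0 replicate 3, 3 without B0 replicate 3 and 4 without B0 replicate 1, and it became 10 without A0 replicate 1. At an adjusted p under 0.05, 3 members passed without A10 replicate 1, 2 without B0 replicate 2 and 2 without BA50 replicate 1, where 1740, 960 and 2506 of all genes passed, against 7 with all samples.

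The AOS change was not shown to differ between testes with and without busulfan. At 50 μg/mL the difference of the 2 changes was 0.04 (Odf4) to 0.96 (Odf1, 95% confidence interval -0.0096 to 1.92), with none called against 0% of genes, limma adjusted p of 0.80 or more and none at an unadjusted p under 0.05 (2.93% of genes above 0). Under the alternatives, single samples left out included, there were 0 to 2 members at that limit. At 10 μg/mL it was -0.24 (Odf4) to 0.49 (Akap4), with none called against 0% of genes, limma adjusted p of 0.92 or more and none at an unadjusted p under 0.05 (1.8% of genes above 0). The intervals are wide enough to hold a difference of over 2-fold for 9 of the 10 genes at 50 μg/mL.

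Within a group the 10 genes largely varied together. In each of the 6 groups a single sample was the highest for all 10 genes at once: A0 replicate 1, A10 replicate 3, A50 replicate 1, B0 replicate 2, BA10 replicate 2 and BA50 replicate 2. BA50 replicate 2 was the highest of all 18 samples for 6 genes, BA10 replicate 2 for Fscb and Ropn1, and A10 replicate 3 for Odf4 and Spa17. Of these samples, A10 replicate 3 had 233 FPKM of summed macrophage markers and BA50 replicate 2 had 259 FPKM, against 272 to 717 FPKM in the other 16. The Sertoli cell sum was low only in A10 replicate 3, while BA50 replicate 2 had 4614 FPKM. The summed levels of the other sheath and fiber genes, of the midpiece and annulus genes and of the head and tail coupling genes were highest in the same sample in all 6 groups, and the summed spermatid markers in 5 of the 6, all but A50, with 10677 FPKM in BA50 replicate 2 against 4860 and 6049 FPKM in the other BA50 samples. The part of cell makeup in the shared movement was not tested.

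Over the 45 pairs of members the Pearson correlation across 18 samples, given as a description, ran from 0.281 (Odf4 and Fscb) to 0.993 (Odf1 and Oaz3), with a median of 0.876. Odf4 was the least like the mean of the members (r = 0.615), and the other 9 had r of 0.884 to 0.970. Within the 9 samples without busulfan the lowest pair was 0.688 and within the 9 with busulfan it was 0.772, both between Odf4 and Akap4. The low value of Odf4 with Fscb over all 18 samples was thus not found within either arm.

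**Figure D4:**
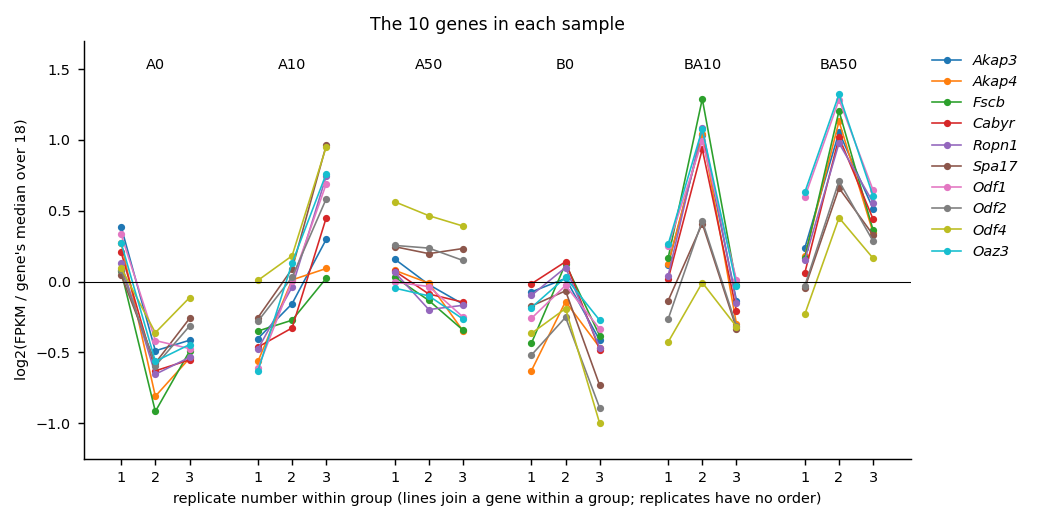
Log2 of each gene's FPKM over its own median of 18 samples (y axis) for the 10 genes (colours) in the 18 samples (x axis, replicate number within each group; lines only join a gene's points). In each group the same sample is highest for all 10 genes, while the lowest sample differs between genes in every group but A10. Odf4 lies above the others in A50 and below them in BA10 replicate 2.

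Further genes of the tail were counted on a list that was chosen by function. Of 15 other genes of the fibrous sheath and outer dense fibers, 14 passed the filter, and Odf3l2 did not, at 0.03 FPKM or less. None was called in the pooled busulfan comparison, the median log2 change was 0.34, and the extremes were Akap14 at 0.47 and Rhpn1 at -0.67, a binding partner of the ropporins. At an adjusted p under 0.05 Akap14 was higher, and Rhpn1 and Odf2l, a relative of Odf2, were lower, 3 of 14 against 38.1% of all genes. Gapdhs, the sperm glycolytic enzyme bound to the sheath, averaged 146 FPKM in B0 and 339 FPKM in BA50. In BA50 against B0 all 14 had positive log2 changes, with a median of 0.65 and none called.

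Among 8 genes of the mitochondrial midpiece and annulus, none was called in the pooled busulfan comparison, and log2 changes ran from -0.71 for Slc26a8, an anion transporter of the annulus, to 0.46 for Smcp, a protein of the mitochondrial capsule. Slc26a8 and Gk2 were lower at an adjusted p under 0.05, 2 of 8 against the same 38.1%. Among 7 genes that couple head and tail, none was called in the pooled comparison, and the extremes were Cntln at -0.84 and Sun5 at 0.52. Cntln, a centriole protein, and Ccdc42 were lower at an adjusted p under 0.05, 2 of 7 against 38.1%, and Cntln was called lower in BA50 than in A50 (log2 change -1.08). The 6 subunit genes of protein kinase A, which are expressed in most cells, ran from -0.06 (Prkaca) to 0.41 (Prkar2b) with none called, and Prkar2a (0.28) and Prkar2b, both regulatory subunits, were higher at an adjusted p under 0.05, 2 of 6 against 38.1%. In BA50 against B0 their median log2 change was -0.23, with none called.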

How the data were processed

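RNA-seq values of 18 cultured testis samples were used, grouped by their labels. The authors deposited 1 table of FPKM with 2 decimals. The submitters' processing notes name HISAT, Bowtie2, RSEM and GRCm38.p5, whereas the study's supplementary methods describe SOAPaligner and RPKM, and which applies to the table was not settled. RSEM shares reads of similar transcripts by estimate. No read counts were given, so depth is unknown and the precision rests on 3 samples per group.

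Gene numbers were matched to symbols in RefSeq (20656 of 20811). Genes with at least 1 FPKM in 3 or more samples (15790) were tested with limma 3.58.1 in R 4.3.3 on log2(FPKM + 1), with 1 coefficient per group and eBayes with trend, and called at a Benjamini-Hochberg adjusted p of at most 0.001 and a log2 change of at least 1. Changes on this scale slightly understate those of low genes. Exact two-sided permutation tests were run for each of the 10 genes over samples (3 against 3 gives at least p = 0.1). The fit was tested on simulated data. All 10 genes are named, and from each further list the largest and smallest busulfan change and those passing an adjusted p under 0.05. Other genes named were chosen after their values were seen. Members, lists and tests were chosen with earlier results of these data known. Python 3.11.15, pandas 2.3.3 and matplotlib 3.10.9 were used. DEGseq and MARS need counts and were not run. Alternatives tried were the replicate block, only the compared groups, a pseudocount of 0.1, no filter or a stricter one (mean of 5 FPKM or more), quantile-normalized values, no trend in eBayes, an adjusted p under 0.05 without a fold limit, and each sample left out. Among the pairs of groups compared, BA50 and B0 alone had all same-numbered samples correlated above 0.1 (0.138 to 0.562 over genes). These correlations were 0.037 to 0.204 in BA50 and A50 and -0.057 to 0.34 in BA10 and B0. BA10 and BA50, and A10 and A50, were not checked in this way.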

Additional observations from a re-analysis of the deposited data

How the results depend on the processing

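Of 1390 changes of single members recomputed under the alternatives, 1357 kept their direction and their side of the limits, 31 turned direction when 1 sample was left out, and 2 turned under another setting. The 2 were those of BA50 against A50 under quantile normalization, -0.17 for Odf2 and -0.028 for Spa17. No member was called in any comparison under any alternative that kept the limits, and with the fit otherwise as in the report the number of members passing an adjusted p under 0.05 with no fold limit was 2 for busulfan over the 3 concentrations and 0 in the other comparisons. Combined with another change, that limit was passed by 2 members of BA50 against A50 with only those groups in the fit. At a mean of at least 5 FPKM 1 member passed there. In BA10 against A10, 1 member passed without A10 replicate 1, and in BA50 against B0, 1 without BA50 replicate 1. For pooled AOS, 3 passed without A10 replicate 1 and 2 without B0 replicate 2 or BA50 replicate 1. Pooled busulfan gave 1 to 4 with single samples left out and 1 with no filter. With samples left out in turn, B0 against A0 ran from -0.17 to 0.24 for Odf1, -0.14 to 0.29 for Akap3, -0.27 to 0.26 for Akap4, -0.020 to 0.45 for Fscb, -0.22 to 0.14 for Spa17 and -0.057 to 0.36 for Oaz3. BA10 against A10 ran from -0.40 to 0.075 for Odf2, -0.13 to 0.57 for Ropn1, -0.54 to 0.063 for Spa17 and -0.010 to 0.69 for Oaz3, and BA50 against A50 from -0.086 to 0.28 for Odf2 and -0.084 to 0.27 for Spa17. Pooled busulfan ran from -0.17 to 0.031 for Spa17. A10 against A0 ran from -0.12 to 0.53 for Odf1, -0.11 to 0.36 for Akap3, -0.017 to 0.52 for Akap4, -0.069 to 0.47 for Cabyr and -0.0055 to 0.69 for Oaz3, and A50 against A0 from -0.055 to 0.35 for Odf1 and -0.052 to 0.37 for Oaz3. The cause of these turns was not tested beyond the samples removed. With the replicate number as a block the members called remained 0 in every comparison, and the members of BA50 against B0 at an unadjusted p under 0.05 were 7 in place of 8. What same-numbered samples of different groups share beyond the number is unknown. Unknown depth and 3 samples per group limit all values.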

Other observations

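The genes whose standardized levels over the 18 samples were most like the mean of the 10 tail genes were 4430402I18Rik (r = 0.988, 30.2 to 100 FPKM), Ccdc33 (r = 0.987, 6.08 to 21.4 FPKM), Vwa3b (r = 0.985, 14.4 to 48.7 FPKM), Hk1 (r = 0.985, 88.6 to 230 FPKM) and Hmox2 (r = 0.983, 125 to 283 FPKM). Hk1 encodes a hexokinase of which the testis makes forms of its own, and Hmox2 encodes a heme oxygenase. These correlations are a description over samples that share libraries and treatment groups. Of 4 motile cilium markers tested, 3 were called lower with busulfan over the 3 concentrations, where 3.61% of all genes were called. The median log2 change of the 4 was -1.37, and Foxj1, the marker not called, was at -0.004. Of the tail genes 0 of 10 were called, and the difference between the lists was not tested.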
